A study of Homo sapiens with 12 samples.

Results

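The genes for the proteins of the cytosolic ribosome were followed in 2 human cancer cell lines with and without an algal extract. Members were the protein-coding genes whose symbol is RPL or RPS followed by a number, together with RPSA, RPLP0, RPLP1 and RPLP2. The ribosomal S6 kinases, RPS27L, RPS19BP1 and hyphenated read-through genes were left out. The rule found 87 members among 57736 genes, 53 named for the large subunit and 34 for the small subunit. No measured value entered the choice. RPL10L and RPS4Y2 had no counts in any library, and RPL3L had 35 counts in all 12 libraries together.

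HepG2, an established line from a liver cancer, and Ls174, an established line from a colon cancer, were kept for 24 h with or without HME, a methanol extract of the red seaweed Hypnea musciformis. The labels give the extract at 0.7 mg/ml, and the methods of the study give a slightly higher concentration. Each of the 4 groups (HepG2 control, HepG2 HME, Ls174 control, Ls174 HME) had 3 biological replicates, and each line is a single cancer-derived line that stands for its tissue only in part. RNA was sequenced from its 3′ ends, so each molecule gives about the same number of reads whatever its length, and counts of different genes were set side by side without dividing by length.

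Cytosolic ribosomal proteins and ribosomal RNA make up the small subunit, which decodes the mRNA, and the large subunit, which forms the peptide bond. The proteins are needed in nearly equal numbers, and their mRNAs are among the most abundant in dividing cells. Most of these mRNAs begin with a C followed by a run of pyrimidines, the 5′ terminal oligopyrimidine (TOP) tract, through which mTOR signalling sets how well they are translated. A few members have a close copy elsewhere in the genome, such as RPL22L1 beside RPL22, and many have processed pseudogenes with nearly the same sequence.

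The tract was read around the RefSeq start sites of GRCh38.p14. The windows shown run from 10 bases before the start to 20 bases from it on the transcribed strand, 5′ to 3′. The members shown are those on which the results below turn and which have 1 listed start, with the tract in capitals. The tract was defined as a C followed by at least 7 further C or T, beginning within 20 bases of the start. A counted tract could thus begin or end outside the windows shown.
RPL22L1: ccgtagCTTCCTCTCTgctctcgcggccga
RPL22: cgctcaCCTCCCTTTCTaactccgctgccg
RPS18: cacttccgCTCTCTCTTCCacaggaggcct
RPL7A: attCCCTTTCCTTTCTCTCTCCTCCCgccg
RPL26: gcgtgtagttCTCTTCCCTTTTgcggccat
RPS12: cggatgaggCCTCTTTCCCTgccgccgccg
RPL7L1: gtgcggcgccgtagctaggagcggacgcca
RPS26: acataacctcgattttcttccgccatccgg
These windows lie at chr3:170870176-170870205 (minus strand) for RPL22L1, chr1:6199576-6199605 (minus) for RPL22, chr6:33272065-33272094 (plus) for RPS18 and chr9:133348208-133348237 (plus) for RPL7A. They lie at chr17:8383174-8383203 (minus) for RPL26, chr6:132814559-132814588 (plus) for RPS12, chr6:42879606-42879635 (plus) for RPL7L1 and chr12:56041908-56041937 (plus) for RPS26. RPL7L1 and RPS26 had no tract by this definition. A tract was found in 45 of the 58 members with 1 listed start (77.6%) and in 6 of 58 such genes for mitochondrial ribosomal proteins (10.3%). It was found in 15.5% of all 35116 listed promoters, a set that was not limited to genes with 1 listed start.

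The libraries held between 1790841 and 3656662 counts. The markers fixed for hepatocytes took 0.928 to 1.95% of counts in HepG2 libraries and at most 0.0193% in Ls174 libraries, and those for colon epithelium 0.0702 to 0.133% in Ls174 and at most 0.0205% in HepG2. HepG2 control 2 and Ls174 control 1 stood apart from the other controls of their line, and values without them are given beside results that rest on them. Levels are given as CPM, counts relative to a normalized library size. The library HepG2 HME 2 carried 511 CPM of COL1A1 and 378 CPM of COL1A2, both mesenchymal collagens, against 3.37 CPM or less in the other HepG2 HME libraries. Mesenchymal markers took 0.0772% of counts there and 0.00102% or less in the other 11 libraries, while DCN and LUM, further markers of that list of 5, were at 0 in that library.

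The members differed widely in level. RPL37A, a large-subunit protein, was highest with a mean of 12051 CPM over the 12 libraries, followed by RPL27A (10006.5 CPM), RPS27A (7828 CPM), which is made as a fusion with ubiquitin, RPS6 (6483 CPM), the target of S6 kinase, and RPS12 (5988 CPM). The lowest tested members were RPL39L (9.18 CPM), RPL26L1 (40.4 CPM), RPS26 (49.0 CPM), RPL6 (159 CPM) and RPL7L1 (174 CPM). The number of members over 1000 CPM was 49 of the 85 with counts in untreated HepG2 cells and 57 with HME, and 43 in untreated Ls174 cells and 50 with HME. The 10 highest members took between 39.4 and 41.6% of the CPM of all members in each group, so the levels were uneven to about the same degree in the 4 groups.

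Low levels of RPS26 and RPL6 go with high counts in their named pseudogenes. Over the 12 libraries, the pseudogenes of RPS26 held 2908% of the counts of RPS26 itself, those of RPL7 599%, those of RPL3 571.7% and those of RPL6 534.4%. Of 855 pseudogenes named after 75 of the members, 549 had a count. How reads that match several places were assigned is not given in the sources used here, so the level of these members against the others is uncertain. Of the members, 83 had over 50 percent of their counts in 1 counted region.

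The members took a larger share of the library counts with HME in both lines. In HepG2 the share was 15.8, 15.2 and 15.4% in the 3 controls and 17.8, 18.6 and 16.3% in the 3 HME libraries, with means of 15.5% ± 0.348 and 17.6% ± 1.18 (SD, n = 3 each). In Ls174 it was 15.2, 15.1 and 14.8% in controls and 15.8, 17.2 and 16.4% with HME, with means of 15.0% ± 0.221 and 16.5% ± 0.704 (SD, n = 3 each). Every HME library lay above every control of its line, by 2.13 percentage points on average in HepG2 and 1.49 points in Ls174. No test was run on the share, because it is a score over the members.

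**Figure D1:**
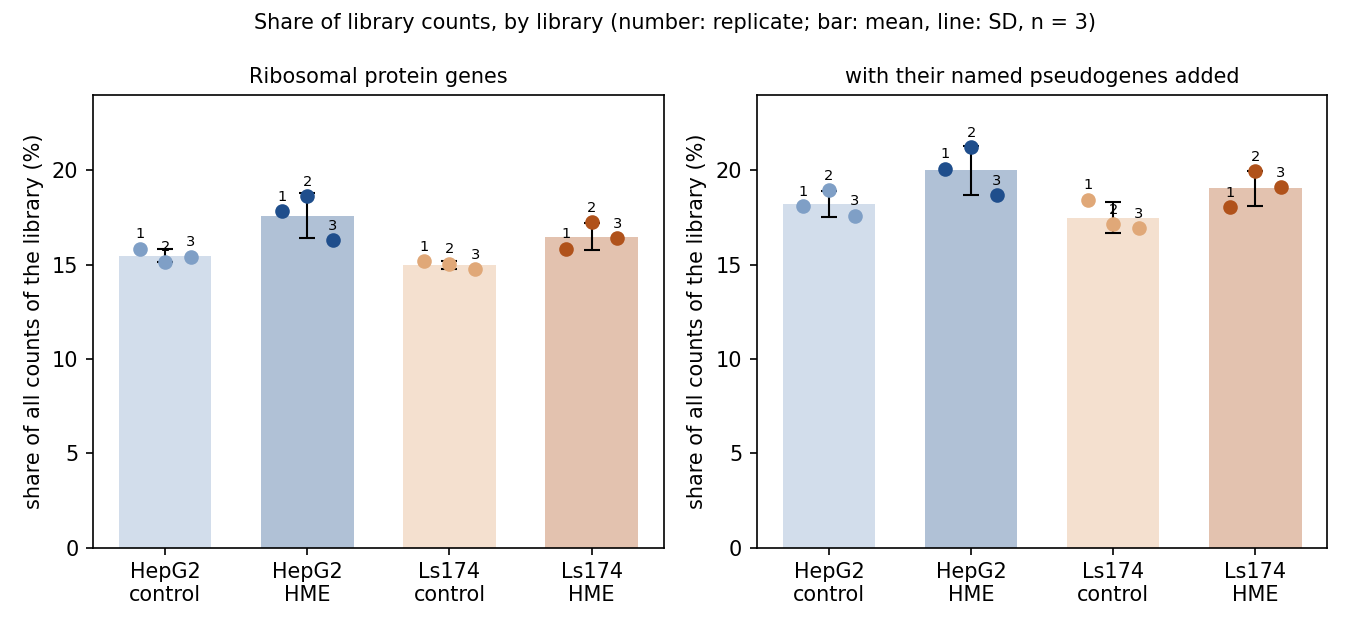
Share of all library counts taken by the cytosolic ribosomal protein genes (y axis, percent) in each of the 12 libraries by group (x axis), with points for libraries and bars for the mean and SD. The HepG2 HME libraries lie between 16.3 and 18.6% and the Ls174 HME libraries between 15.8 and 17.2%, above the controls of the same line.

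The higher share held when only protein-coding genes formed the total (18.3 to 20.8% in HepG2 and 17.6 to 19.3% in Ls174, group means). It also held when only regions that overlap no other gene were counted (13.5 to 16.0% and 12.8 to 14.7%), an alternative chosen after seeing the data. With only the region with the most counts of each gene, also chosen after seeing the data, the means were 14.0 and 15.6% in HepG2, where the groups overlapped, and 13.6 and 14.8% in Ls174, where they did not. With the named pseudogenes added, the means were 18.2 and 20.01% in HepG2 and 17.5 and 19.0% in Ls174, and the groups overlapped in both lines. The small subunit went from 7.20% ± 0.443 to 8.53% ± 0.912 in HepG2 and the large subunit from 8.27% ± 0.141 to 9.07% ± 0.480 (SD, n = 3 each), without overlap. In Ls174 the small subunit went from 6.51% ± 0.600 to 7.27% ± 0.377 and the large subunit from 8.49% ± 0.677 to 9.22% ± 0.329, and for both subunits the groups overlapped.

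In HepG2, 4 members rose with HME and 0 fell, among 84 tested: RPL22L1, RPL37, RPS18 and RPS19. A gene was called here at an unadjusted p under 0.05 in edgeR's quasi-likelihood test with a log2 fold change beyond 0.58, limits taken from the methods of the study. Of all genes tested, 11.3% were called higher and 10.9% lower by these limits, against 4.76% and 0% of the members, so the count of members is below the background in both directions. With Benjamini-Hochberg adjustment over all genes, 0 members passed, against 2.77% of all genes higher and 0.538% lower. An unadjusted p under 0.05 was found for 4 members. With scaling by library size alone 0 members rose and 1 fell (7.59% and 15.2% of all genes). With no filter on low counts, 11.8% of 85 members and 7.79% of 24458 genes were called higher. The share of members was then above that of all genes, but the set of all genes had grown from 11343 by genes of low count. A p that misses the threshold does not show that a member was at the same level in both groups.

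RPS19, a small-subunit protein mutated in Diamond-Blackfan anaemia, was at 2073, 1092 and 1275 CPM in the HepG2 controls and at 2484.5, 2912 and 2727 CPM with HME. All HME libraries lay above all controls, and the log2 fold change was 0.87 (SE 0.35, adjusted p = 0.189 with edgeR). RPS18, a protein of the head of the small subunit, was at 700.1, 276 and 591 CPM in controls and at 808, 1225 and 905 CPM with HME. On these CPM the groups did not overlap either, with control 2 the lowest library, and the log2 fold change was 0.91 (SE 0.40, adjusted p = 0.220 with edgeR). By library size alone RPS18 was slightly higher in control 1 (2905 of 3656662 counts) than in HME 1 (2196 of 2784140).

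RPL22L1, the close copy of RPL22, was at 159, 23.2 and 77.9 CPM in the HepG2 controls and at 164, 266 and 246 CPM with HME. On these CPM the groups did not overlap, though control 1 and HME 1 were nearly equal, and control 2 was far below the rest (log2 fold change 1.37, SE 0.57, adjusted p = 0.199 with edgeR). By library size alone control 1 (660 of 3656662 counts) was above HME 1 (447 of 2784140), so the groups overlapped. Without control 2 the log2 fold change of RPL22L1 was 0.94 and the call was kept. RPL37, a zinc-binding protein of the large subunit, was at 1264, 1447 and 1304 CPM in controls and at 2054, 4567 and 1444 CPM with HME. The groups overlapped, HME 2 alone was far above the rest, and 99.98% of the counts of RPL37 lie in a region that also holds the small nucleolar RNA gene SNORD72. The log2 fold change of RPL37 was 1.01 (SE 0.44, adjusted p = 0.218 with edgeR), and without HME 2, the library with collagen mRNA, it was 0.40 and the call was lost. The part of the collagen signal in the result was not tested.

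The HepG2 calls depended on single libraries. Without control 2, 10 members rose, among them all 4 above (11.9% of members, against 14.1% of all genes in the same fit), and without control 1, 6 rose, among them RPL22L1, RPS18 and RPS19 (7.14% against 11.8%). Without HME 2 only RPL36A was called (1.19% of members, against 8.34% of all genes called higher). Without control 3 the 4 members called higher were RPL36A, RPS23, RPS27 and RPS27A (4.76% against 9.78%). Without HME 1 the calls were RPL22L1 and RPL37 (2.38% against 9.57%), and without HME 3 RPL37 alone (1.19% against 8.33%). RPL7L1 was called lower without control 1 (log2 fold change -1.21) or control 3 (-1.17), where 12.3% and 11.6% of all genes were called lower. RPS18 and RPS19 each kept their call in 2 of 6 such fits, and RPL22L1 and RPL37 in 3 of 6.

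More members were on the higher side than the calls show. In HepG2, 61 of 84 members had a positive log2 fold change (72.6%, against 47.7% of all genes, with 52.3% of all genes negative), and their median was 0.30 against -0.04 for all genes. With scaling by library size alone 51 of 84 were positive, and the medians were 0.16 for members and -0.20 for all genes. With HME 2 left out the median of the members was 0.24, and with control 2 left out it was 0.39, with 78 of 84 positive. By CPM scaled within the line, all HME libraries lay above all controls in 19 members (22.6% of those tested, against 16.6% of all genes), and in 0 members all lay below (14.2% of all genes). RPS27A was one of the 19, at 6906, 3344 and 9624 CPM in controls and at 13037, 13189 and 10359 CPM with HME (log2 fold change 0.88, adjusted p = 0.263 with edgeR). By library size alone RPS27A was higher in control 3 (26560 of 2442360 counts) than in HME 3 (18439 of 1790841).

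The lowest log2 fold change in HepG2 was that of RPL7L1, a paralog of RPL7 that acts in ribosome assembly, at 178, 612 and 201 CPM in controls and 171, 189 and 165 CPM with HME. Control 2 alone was high, and the log2 fold change of -0.92 (adjusted p = 0.284 with edgeR) became -0.10 without it. RPL27A was next, at 4673, 17345 and 4275 CPM in controls and 5404, 6255 and 5418 CPM with HME, with control 2 again the high library (log2 fold change -0.62, adjusted p = 0.531 with edgeR). Without control 2 the log2 fold change of RPL27A turned to 0.36 (adjusted p = 0.418 with edgeR).

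**Figure D2:**
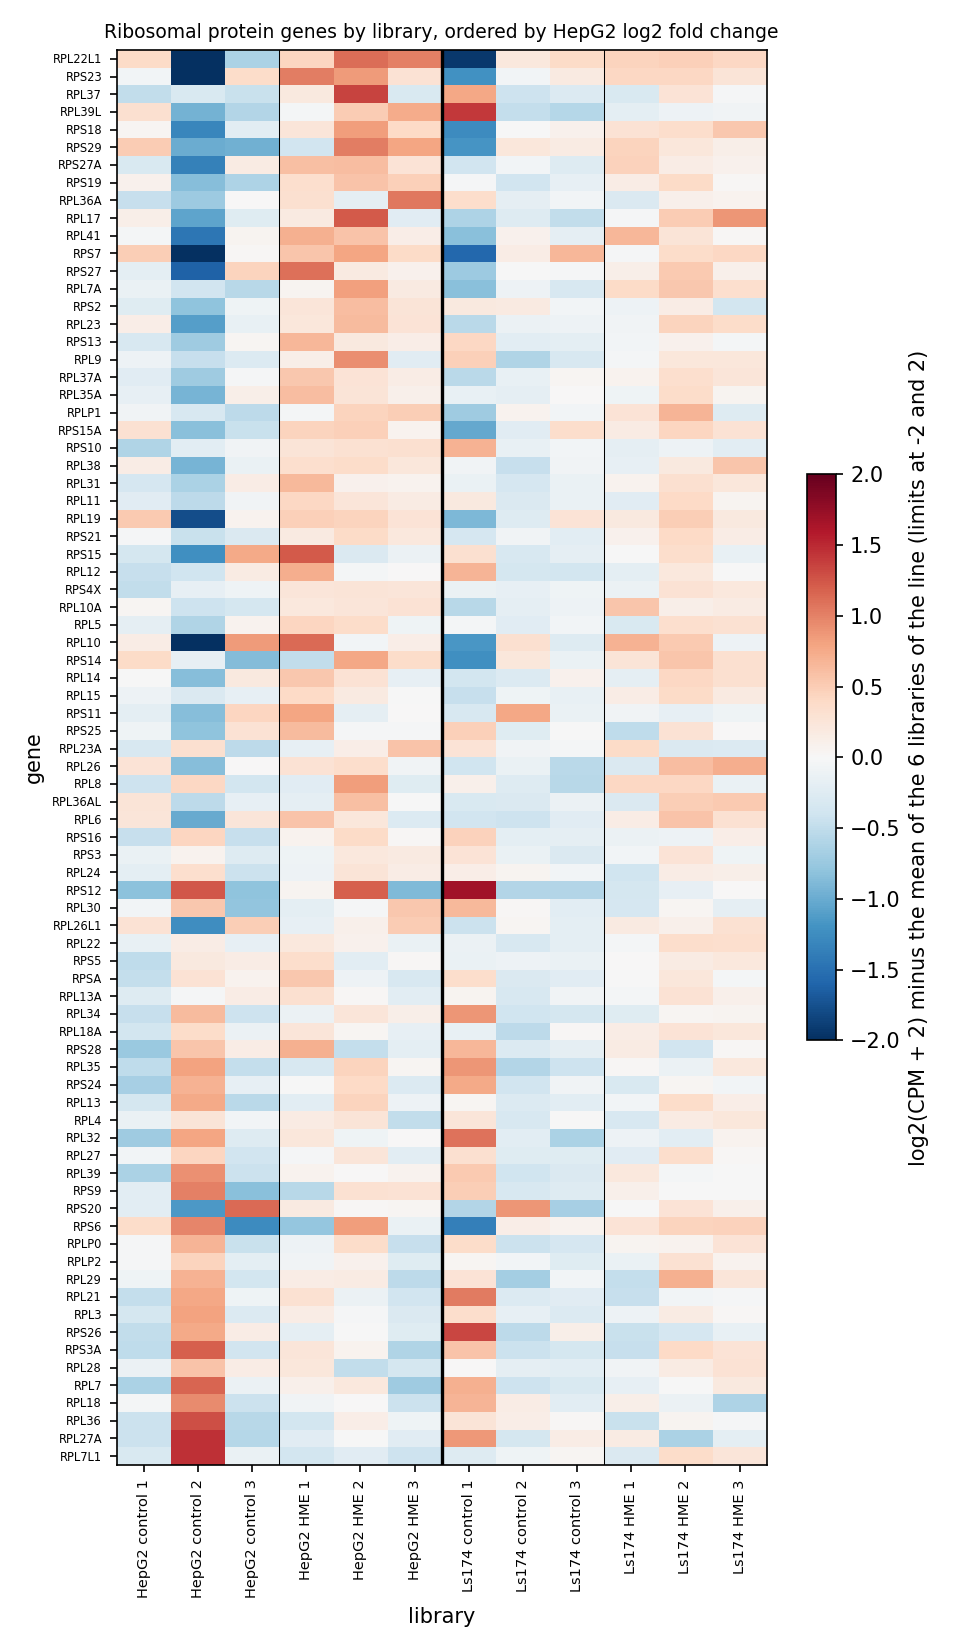
Level of 80 of the members tested in both lines (rows) in each library (columns) as the difference of log2(CPM + 2) from the mean of the 6 libraries of its line, on a colour scale from -2 to 2. HepG2 control 2 and Ls174 control 1 differ from the other controls of their line in many members, and the HME columns are mostly on the higher side, as the median log2 fold changes of 0.30 in HepG2 and 0.23 in Ls174 show.

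In Ls174, 6 members rose with HME and 0 fell among 83 tested, and RPL17, RPL7A, RPL26 and RPL6 are described here. Of all genes tested there, 4.11% were called higher and 7.85% lower, against 7.23% and 0% of the members. The count of members is thus above the background for higher calls in this fit and below it for lower calls. After Benjamini-Hochberg adjustment in edgeR 0 members passed, against 0.318% of all genes higher and 0.866% lower. An unadjusted p under 0.05 was found for 8 members. With all 12 libraries in 1 fit, 3.57% of members and 3.47% of all genes were called higher, so the count was then near the background.

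RPL17, which lines the exit tunnel of the large subunit, was at 573, 732 and 624 CPM in the Ls174 controls and at 868, 1253 and 1621 CPM with HME. The groups did not overlap, and the log2 fold change was 0.96 (SE 0.26, adjusted p = 0.157 with edgeR). RPL7A was at 1831, 3024 and 2607 CPM in controls and at 4248, 4739 and 4138 CPM with HME. Here too every HME library was above every control, and the log2 fold change stood at 0.81 (SE 0.25, adjusted p = 0.210 with edgeR). Of the counts of RPL17, 99.8% lie in regions that overlap the read-through gene RPL17-C18orf32 or small nucleolar RNA genes. The regions of RPL7A overlap SNORD36A, SNORD36B and, on the other strand, SURF1.

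RPL6 was at 133, 130.1 and 149 CPM in the Ls174 controls and at 194, 260.4 and 216 CPM with HME, without overlap (log2 fold change 0.70, SE 0.20, adjusted p = 0.160 with edgeR). With the counts of its named pseudogenes added, the log2 fold change of RPL6 was 0.40 (adjusted p = 0.414 with edgeR) and it was not called. RPL26, which binds next to the exit tunnel, was at 1182, 1418 and 1071 CPM in controls and at 1281, 2400.5 and 2591.5 CPM with HME. HME 1 lay within the controls and the other HME libraries well above them, and the log2 fold change of RPL26 was 0.77 (SE 0.29, adjusted p = 0.311 with edgeR).

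In Ls174, RPL17, RPL7A and RPL6 kept their call in 6 of 6 fits that left out 1 library, and RPL26 in 3. The number called higher was 10 without control 2 or control 3 (3.96% and 5.45% of all genes, against 12% of members). It was 3 without HME 2 (2.44% of all genes, against 3.61% of members) and 4 without HME 3 (2.56% against 4.82%). Without control 1, 4 members passed the Benjamini-Hochberg adjustment in edgeR, namely RPL17 (adjusted p = 0.0253), RPL6 (0.0265), RPL7A (0.0434) and RPL9 (0.046), or 4.82% of members against 3.06% of all genes in that fit. Of the 83 members, 58 had a positive log2 fold change (69.9%, against 49.9% of all genes, with 50.1% of all genes negative), with a median of 0.23 against 0.00 for all genes. The median without control 1 was 0.31, with 72 of 83 positive. In 24 members all HME libraries lay above all controls (28.9%, against 11.5% of all genes) and in 0 all lay below (12.3% of all genes).

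RPS26 and RPS12 had the lowest log2 fold changes in Ls174. RPS26 was at 164, 43.5 and 69.3 CPM in controls and at 46.1, 50.002 and 56.9 CPM with HME (log2 fold change -0.84, adjusted p = 0.437 with edgeR). RPS12 was at 9047, 1878 and 1895 CPM in controls and at 2223, 2533 and 2845 CPM with HME (log2 fold change -0.75, adjusted p = 0.593 with edgeR). In both genes control 1 alone was high. Without it the log2 fold change of RPS12 was 0.43 (adjusted p = 0.166 with edgeR) and that of RPS26 was -0.15 (adjusted p = 0.721), and neither was called.

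Members called in both lines numbered 0. In 11 of 83 members, however, all HME libraries lay above all controls in both lines, by CPM scaled within a line (13.3%, against 3.54% of all 9871 genes tested in both). Among them were RPL10A, RPL15, RPL22L1, RPL23, RPL37A, RPL7A, RPS18, RPS19, RPS21 and RPS27A. By library size alone the HepG2 groups overlapped in each of these but RPS19. The count over members and over all genes was not made with that scaling. RPL37A, the most abundant member, was at 12723, 9097 and 14645 CPM in the HepG2 controls and 21551, 18007 and 16396 CPM with HME. In Ls174 it was at 5439, 7138 and 8150.4 CPM in controls and 8328, 9975 and 9358 CPM with HME. The log2 fold changes of RPL37A were 0.62 in HepG2 and 0.42 in Ls174, and neither was called.

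Of the 83 members tested in both lines, 44 had a positive log2 fold change in both (53.0%, against 30.01% of all genes). Across these members the log2 fold changes in HepG2 and Ls174 had a Pearson r of 0.39 and a Spearman rho of 0.39 (n = 83 genes, which are not independent replicates). Without HepG2 control 2 and Ls174 control 1, an alternative chosen after seeing the data, 67 of 83 were positive in both (80.7%, against 29.9% of all genes), and r was 0.14 and rho 0.087. More members were thus on the higher side in both lines without these libraries, while the order of the members was less alike between the lines.

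**Figure D3:**
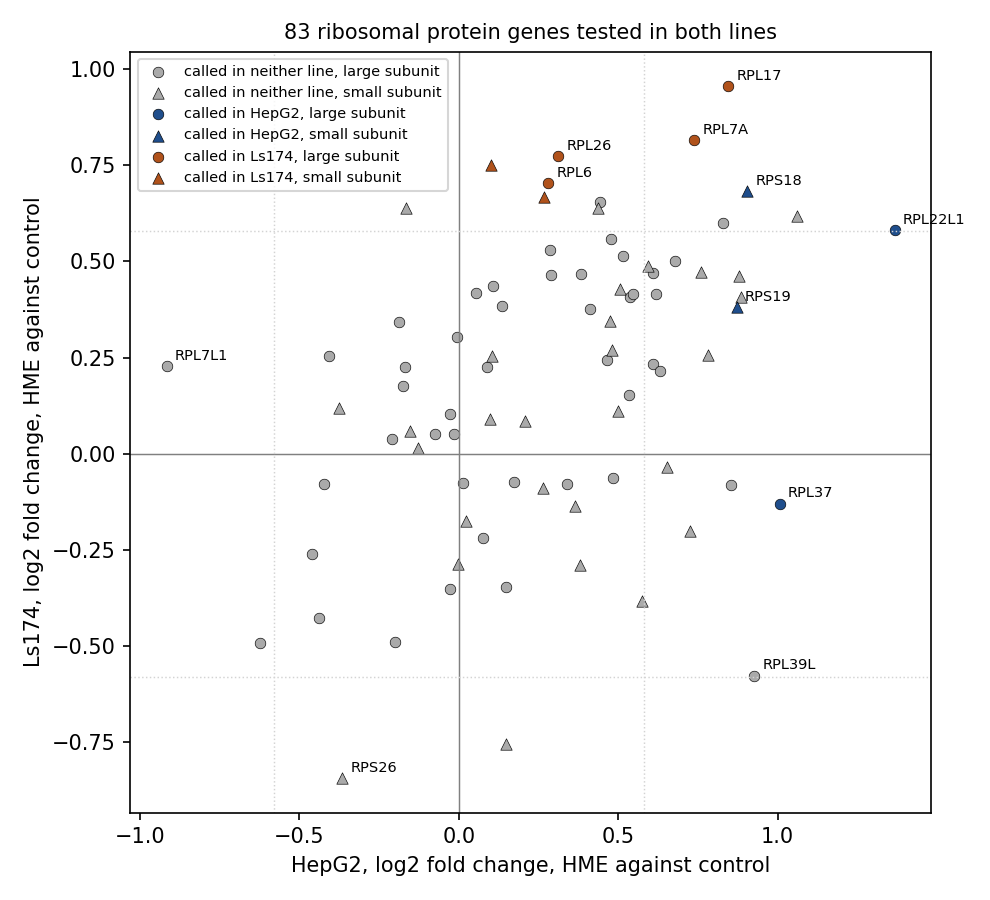
HME log2 fold change of each of 83 members in HepG2 (x axis) against Ls174 (y axis), with members called in either line coloured. Of the points, 44 lie above 0 on both axes, and no member was called in both lines.

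The difference of the HME effect between the lines was tested by the interaction of line and treatment, and 0 members passed the Benjamini-Hochberg adjustment in edgeR (0.613% of all genes higher in HepG2, 0.0307% lower). The median difference over the members was 0.10 against -0.04 for all genes, and 47 of 84 members were positive (48.1% of all genes positive, 51.9% negative). By library size alone the medians were 0.00 and -0.13. By the unadjusted limits 1 member, RPS10, was called, a small-subunit protein named here after its values were seen (7.42% of all genes higher and 5.75% lower). It was at 1323, 1746 and 1908 CPM in the HepG2 controls and 2409, 2472 and 2525 CPM with HME. In Ls174 it was at 2039.9, 1141 and 1214 CPM in controls and 1117, 1169 and 1083.5 CPM with HME. On these CPM the HepG2 groups did not overlap and the Ls174 groups did, with a difference of 0.94 on the log2 scale (SE 0.41, adjusted p = 0.338 with edgeR). Without Ls174 control 1 the difference of RPS10 was 0.64 and it was not called. By library size alone, by upper-quartile scaling or with the replicate block, 0 members were called higher in the interaction (5.98, 6.6 and 6.27% of all genes). By library size alone and by upper-quartile scaling 1 member was called lower (6.93% and 7.06% of all genes), and with the replicate block 0 (4.71%).

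By role, the large subunit had 2 members called higher of 51 tested in HepG2 (median log2 fold change 0.29) and 4 of 51 in Ls174 (median 0.23). The small subunit had 2 of 33 in HepG2 (median 0.38) and 2 of 32 in Ls174 (median 0.19). Over all genes, 11.3% were called higher in HepG2 (median -0.04) and 4.11% in Ls174 (median -0.003). The stalk proteins RPLP0, RPLP1 and RPLP2, which recruit the GTPases of translation, had log2 fold changes of -0.17, 0.61 and -0.18 in HepG2 and 0.23, 0.47 and 0.18 in Ls174. RPL5 and RPL11, which bind 5S ribosomal RNA and can bind MDM2, had 0.47 and 0.54 in HepG2 and 0.24 and 0.15 in Ls174. None of these 5 was called in either line.

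RPS6 was at 6510, 9911 and 2098 CPM in the HepG2 controls and 2956, 8979 and 4588 CPM with HME, a wide spread in both groups. In Ls174 it was at 2617, 7381 and 7059 CPM in controls and 8125, 9198 and 9252 CPM with HME, where the groups did not overlap and control 1 was low (log2 fold change 0.64, not called, and 0.30 without control 1). RPL3, at the peptidyl transferase centre, had log2 fold changes of -0.21 in HepG2 and 0.04 in Ls174, and RPSA, which is also known as a laminin receptor, 0.10 and 0.09. RPL39, a small protein of the exit tunnel, had -0.07 in HepG2, where control 2 was at 8622 CPM against 2965 and 3427 CPM in the other controls. Without control 2 RPL39 was called higher, at 0.59 (adjusted p = 0.182 with edgeR).

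Members with a tract at the start site had a median log2 fold change of 0.31 in HepG2 (n = 45) against -0.06 for members without (n = 10). In Ls174 the medians were 0.23 (n = 45) and 0.10 (n = 10). Without HepG2 control 2 the medians were 0.39 with and 0.35 without a tract, and without Ls174 control 1 they were 0.31 and 0.26, so the gap between the sets was small without these libraries. These are descriptions with no test, and RPL7L1 and RPS26, shown above without a tract, had the lowest log2 fold change of the members without a tract, RPL7L1 in HepG2 and RPS26 in Ls174.

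Between the untreated lines, 10 of 84 members were higher in HepG2 and 2 were higher in Ls174, at the same limits. These were 11.9% and 2.38% of members, against 19.5% and 15.4% of all genes. By library size alone 4 were higher and 3 lower (16.5% and 18.9% of all genes). After Benjamini-Hochberg adjustment in edgeR, 3 members were higher in HepG2 and 1 in Ls174 (14.2% and 9.33% of all genes). The counts of members are thus below the background in both directions. Without both libraries that stood apart, 24 members were higher and 5 lower, 22 and 3 of them after adjustment. In that fit 28.6% of members and 26.8% of all genes were called higher (26.2% and 24.1% after adjustment), so the members were then no longer below the background for higher calls. Leaving out 1 of the other controls gave 4 or 5 higher (17.4 to 18.3% of all genes). The median log2 difference, HepG2 minus Ls174, was 0.22 against 0.04 for all genes, with 60 of 84 members positive (51.7% of all genes, with 48.3% negative). By library size alone the medians were 0.03 and -0.17, with 45 of 84 members positive. In 13 members all HepG2 controls lay above all Ls174 controls (22.3% of all genes) and in 4 all lay below (20.3%). Of the members whose levels are given, the paralogs RPL22L1 and RPL7L1 differed most.

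RPL22L1 was at 177, 23.7 and 86.9 CPM in the HepG2 controls and at 243, 1115 and 1249.6 CPM in the Ls174 controls. The lines did not overlap, and both libraries that stood apart were the lowest of their line (log2 difference -3.16, SE 0.80, adjusted p = 0.0195 with edgeR). RPL7L1 was at 199, 623 and 224 CPM in HepG2 and at 63.4, 74.2 and 80.4 CPM in Ls174, with a log2 difference of 2.32 (SE 0.51, adjusted p = 0.00965 with edgeR). Without both libraries that stood apart, the differences were -3.14 (adjusted p = 7.81e-06) for RPL22L1 and 1.47 (adjusted p = 0.000159) for RPL7L1, so both calls were kept.

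RPL39L, known from testis and some tumours, was at 6.45, 1.25 and 2.42 CPM in HepG2 and 32.9, 7.76 and 7.17 CPM in Ls174. The lines did not overlap, but the counts were few and Ls174 control 1 was far above the others (log2 difference -2.09, SE 0.80, adjusted p = 0.0947 with edgeR). Without that control the difference of RPL39L was -1.01 and it was not called. RPL13 was at 2690.2, 5301 and 2347 CPM in HepG2 and 1390.25, 1143 and 1201 CPM in Ls174, a log2 difference of 1.52 (SE 0.45, adjusted p = 0.0372 with edgeR) that was 1.04 without HepG2 control 2. RPS15A (1.42), RPL23 (1.16), RPL37A (1.09) and RPL22 (0.86) were also called higher in HepG2 at the unadjusted limits. Of 7 fits that left out 1 control or both that stood apart, RPS15A and RPL22 kept this call in 5, RPL23 in 3 and RPL37A in 2.

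RPL22 itself was at 621, 692 and 612 CPM in HepG2 and at 381, 339 and 371 CPM in Ls174, so the copies RPL22 and RPL22L1 differed between the lines in opposite directions. RPL22L1 took 22.2, 3.31 and 12.4% of the counts of the pair in the HepG2 controls and 39.0, 76.7 and 77.1% in the Ls174 controls. With HME it took 18.7, 29.1 and 30.5% in HepG2 and 75.9, 71.1 and 70.5% in Ls174. Within each line the HME and control ranges overlapped, while every Ls174 library was above every HepG2 library. The main counted region of RPL22L1, chr3:170582467-170584313 on the minus strand of hg19, overlaps no other gene and the gene has no named pseudogene with its symbol in the files.

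**Figure D4:**
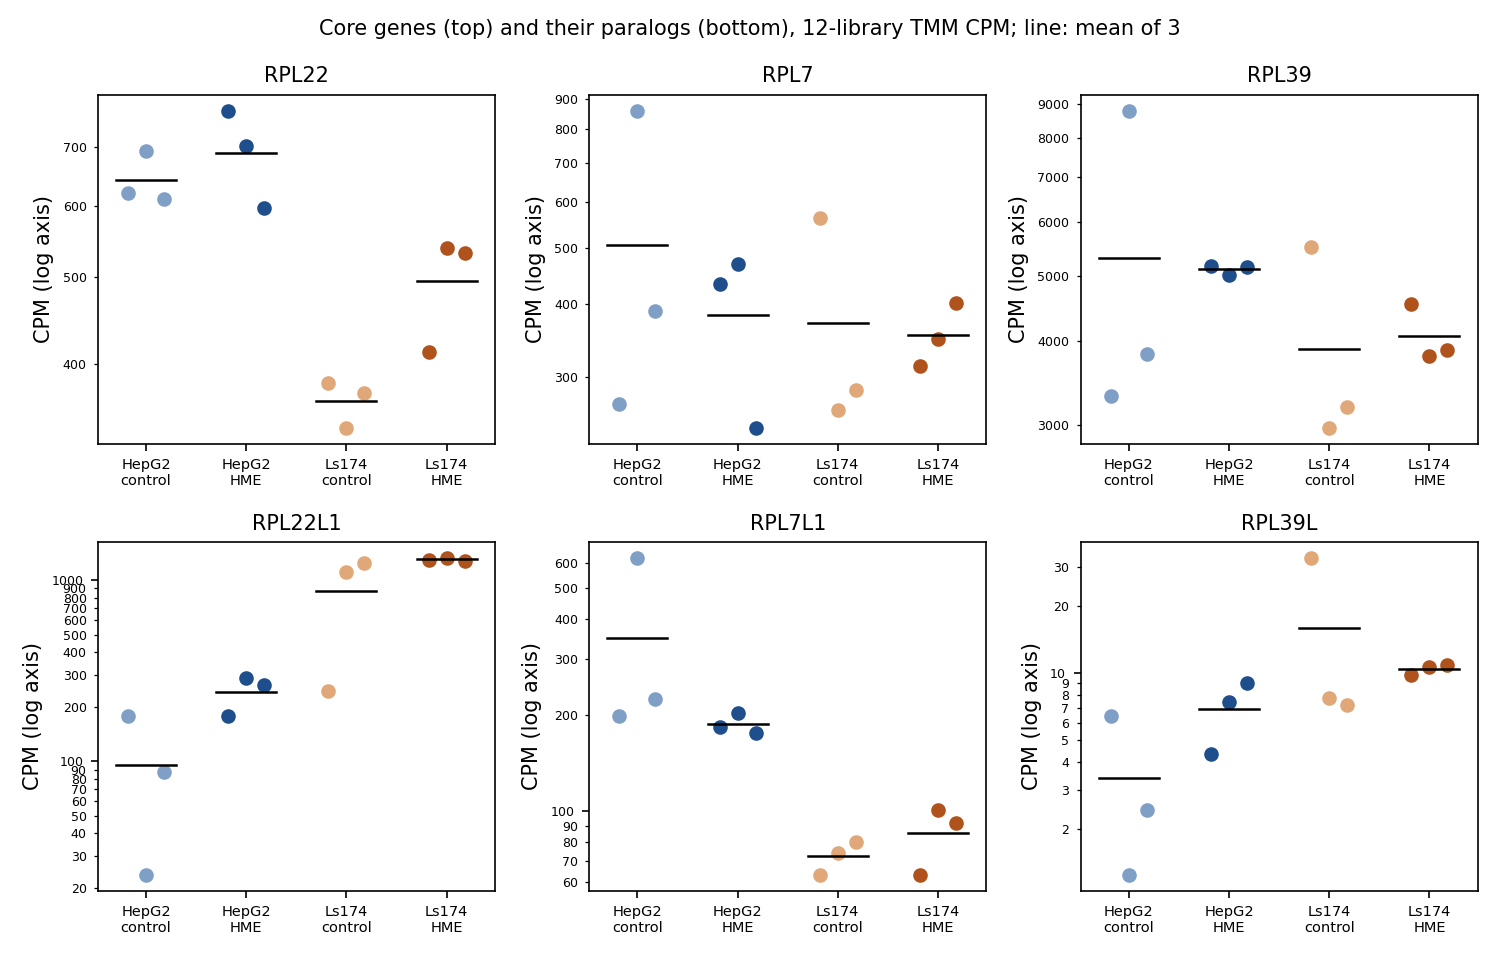
Level (CPM, log axis that differs between panels) of RPL22, RPL7 and RPL39 in the upper row and of their copies RPL22L1, RPL7L1 and RPL39L in the lower row, by group, with points for libraries and lines for means. In controls RPL22L1 lies between 23.7 and 177 CPM in HepG2 and between 243 and 1249.6 CPM in Ls174, while RPL22 is higher in HepG2.

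For the other pairs, RPL7L1 took group means of 40.3% (HepG2 control), 33.9% (HepG2 HME), 18.02% (Ls174 control) and 19.3% (Ls174 HME) of the counts of RPL7 and RPL7L1. RPL7 has pseudogenes with more counts than itself, so this percent is uncertain. RPL36AL took 28.2, 22.6, 33.7 and 42.8% of its pair with RPL36A in the same order of groups. RPL26L1 took 1.43, 1.42, 3.74 and 3.15% of its pair with RPL26, and RPL39L at most 0.359% of its pair with RPL39 in any group. Within the lines the HME log2 fold changes of RPL36A (0.85 in HepG2, -0.08 in Ls174), RPL36AL (0.29, 0.53) and RPL26L1 (0.13, 0.38) were not called.

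The 2 control libraries that stood apart shared some of the members that did so. In HepG2 control 2, 32 of 83 members lay over 2-fold from the mean of the other controls (38.6%, against 32.1% of all genes), 17 higher and 15 lower. In Ls174 control 1, 19 of 83 did (22.9%, against 28.8% of all genes), 10 higher and 9 lower. In 12 members this was so in both libraries, in 11 of them in the same direction, while RPS6 was higher in HepG2 control 2 and lower in Ls174 control 1. The joint count was not made over all genes, so it has no background here. In each of the other libraries 11 or fewer members lay over 2-fold from the mean of the other replicates. Across the members the log2 deviations of these 2 libraries had an r of 0.64 and a rho of 0.64 (n = 83), against 0.45 over all 9871 genes tested in both lines and 0.64 over the 1580 other genes above 100 CPM.

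RPS12 was high in both libraries, at 16026 CPM against 3813 and 3852 CPM in HepG2 and at 9047 CPM against 1878 and 1895 CPM in Ls174, and it was also high in HepG2 HME 2 (15527 CPM). RPL27A was high in both too, at 17345 CPM against 4673 and 4275 CPM and at 23018 CPM against 9978 and 14086 CPM. RPS7, chosen after its values were seen, was low in both, at 134 CPM against 907 and 653 CPM in HepG2 and at 143 CPM against 471 and 677 CPM in Ls174. RPL22L1 and RPS23 were low in both as well. Named pseudogenes held 25.1 counts per 100 member counts in HepG2 control 2, against 14.2 and 14.1 in the other controls. In Ls174 control 1 they held 21.5, against 13.8 and 14.7. These 2 libraries also had the fewest counts among the controls of their line (1874120 and 1978000). What else these 2 libraries share beyond being controls cannot be told from the labels, and the part of any shared trait in the comparisons was not tested.

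**Figure D5:**
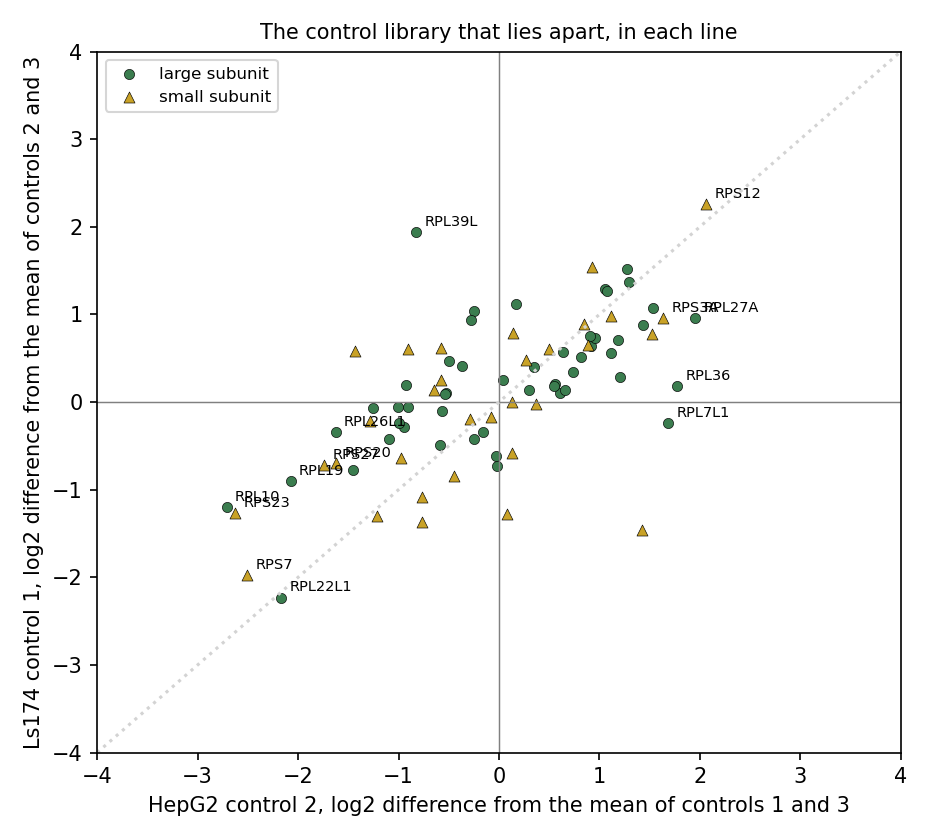
Log2 difference of each member from the mean of the other controls of its line in HepG2 control 2 (x axis) and in Ls174 control 1 (y axis), 1 point for each of 83 members. The points rise together (r = 0.64), with RPS12 high and RPL22L1 low in both libraries.

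Some members share their counted regions with other genes. A region of 36 members overlaps a region of another gene, and these regions hold 33.5% of the counts of all members. They overlap a small nucleolar RNA gene in 21 members and a gene of the other strand in 19, and in 24 members they hold over 50 percent of the member's counts. RPS12 and the small nucleolar RNA gene SNORA33 overlap by 3 bases and were listed with 175107 and 175164 counts, so the same reads may stand under both. RPL27A and SNORA45 (89 bases) were likewise listed with 266262 and 263701 counts. Whether counting used the strand is not given in the sources used here, so overlapping genes cannot be told apart.

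FAU, GNB2L1 and RPS27L, which the rule leaves out, were not called in either line. FAU, which carries RPS30, had log2 fold changes of 0.41 in HepG2 and 0.35 in Ls174, GNB2L1, which encodes RACK1, 0.18 and 0.34, and RPS27L -0.24 and -0.44. Of 26 translation factors and other TOP mRNAs, EIF4A2, a helicase of translation initiation, rose in HepG2 (log2 fold change 1.31, adjusted p = 0.103 with edgeR) and 0 others were called in either line. It was at 193, 128 and 184 CPM in controls and 310.0, 662 and 285 CPM with HME, without overlap, and without control 2 the log2 fold change of EIF4A2 was 1.17. In Ls174 without control 1 EIF4A2 was called as well, at 0.66 (adjusted p = 0.0229 with edgeR). The medians of this list were 0.19 in HepG2 and 0.12 in Ls174, against -0.04 and -0.003 for all genes. With all libraries, 11.3% of all genes were called higher and 10.9% lower in HepG2, and 4.11% and 7.85% in Ls174.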

How the data were processed

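Counts were deposited by the authors as whole reads per 3′ region, made from QuantSeq libraries read on an Ion Proton, aligned with Hisat2 to hg19 and counted with metaseqR2; HISAT2, Bowtie2 and Trimmomatic stand in the submitters' processing notes without versions. The counts were not normalized. Here regions were summed per gene, and each line was fitted by itself on all genes with edgeR 4.0.16 (TMM, filterByExpr, quasi-likelihood F test; R 4.3.3), the interaction on all 12 libraries. CPM are TMM-scaled within a line for HME comparisons and over 12 libraries for levels and comparisons between lines. The floor of 3 counts was 0.768 to 1.87 CPM. Non-overlap means every library of a group lay above every library of the other. For genes it was read on these CPM only, and it was not counted with scaling by library size alone. The fit was run on simulated data with large changes and no library that stood apart, so that run cannot show how it handles such libraries. Replicates of each group differed beyond counting noise. Shares and intervals cover these libraries only. Members and lists were chosen with earlier results of these data known. Members named were, by rule, the 5 most changed among those called, the 5 highest and 5 lowest in level and a fixed list; RPS10, RPS7, RPS23, RPL9 and those without overlap in both lines were named after their values were seen. The Y-linked members are counted but their levels are not given, and some other genes are not reported here. Alternatives were DESeq2 1.42.0, other scalings and filters, each library left out, a replicate block and added pseudogene counts.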

Additional observations from a re-analysis of the deposited data

Results flagged for a closer look

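The share of counts taken by the genes for mitochondrial ribosomal proteins moved in opposite directions in the 2 lines, with every library of each line on its side. In HepG2 it was 0.615, 0.645 and 0.630% in controls and 0.562, 0.501 and 0.5497% with HME, a difference of means of -0.0922 percentage points. In Ls174 it was 0.676, 0.743 and 0.768% in controls and 0.803, 0.930 and 0.931% with HME, a difference of 0.159 points. The difference between the lines was not tested.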

How the results depend on the processing

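The number of members called higher in HepG2 (4) was 8 with DESeq2 (9.52% of members, against 11.1% of all genes). It was 0 with scaling by library size alone (7.59% of all genes) and 0 with upper-quartile scaling (9.74%). With no filter on low counts it was 10 (11.8% of members, against 7.79% of all genes), and with the replicate block 2 (2.38% against 10.2%). With all 12 libraries in 1 fit it was 8 (9.52% against 11.1%), and with pseudogenes added 2 (2.38% against 11.5%). When 1 library was left out it was 1 to 10 (8.33 to 14.1% of all genes). The number lower (0) was 1 with library size, no filter and the fit of 12 (15.2, 7.9 and 12.4% of all genes). It was 0 to 1 without 1 library (6.14 to 12.3%). Past the adjusted p (0), 1 member was higher with no filter (3.36% of all genes higher). The median in HepG2 was 0.16 by library size, where that of all genes was -0.20, and 0.24 to 0.47 without 1 library. In Ls174 the number higher (6) was 13 with no filter (15.3% of members, against 4.11% of all genes) and 3 in the fit of 12 (3.57% against 3.47%). Without 1 library it was 3 to 10 (2.44 to 6.4% of all genes). The number lower (0) was 2 with no filter (6.33% of all genes) and 0 to 1 without 1 library (4.71 to 9.23%). Past the adjusted p (0), the number higher was 3 with DESeq2 (3.61% of members, against 1.26% of all genes) and 1 with no filter (1.18% against 0.824%). Without 1 library it was 0 to 4 (0 to 3.06% of all genes). Between untreated lines the number higher in HepG2 (10) was 4 by library size, 6 by upper quartile and 4 with the replicate block (16.5, 17.9 and 15.9% of all genes). It was 24 without both controls that stood apart (26.8%) and 4 to 13 without 1 library (17.4 to 21.7%). The number lower (2) was 4 in the fit of 12 (20.3% of all genes), 5 without both controls (22.9%) and 1 to 4 without 1 library (11 to 16.8%). Past the adjusted p, the number higher (3) was 10 with DESeq2 and in the fit of 12 (17.3% and 19.6% of all genes). It was 22 without both controls (24.1%) and 2 to 8 without 1 library (11.2 to 15.4%). The number lower (1, with 9.33% of all genes lower) was 2 with DESeq2, 3 with no filter, in the fit of 12 and without both controls. All genes past the adjusted p in either direction numbered 3461 of 11907, 4169 of 24571, 4631 of 13040 and 5625 of 12790 in these fits. The number of members lower was 0 with the replicate block (1890 of 11907 genes in either direction) and 0 to 2 without 1 library (2134 of 12361 to 3367 of 12833). RPL39 in HepG2 (-0.07) was at -0.34 to 0.59 without 1 library, with 0.59 without control 2. The cause was not tested. The replicate block gave 8 members higher in Ls174 (9.64% of members, against 3.9% of all genes) and 0 past the adjusted p in the interaction. Same-numbered deviations had correlations of -0.17, 0.088 and -0.13 in HepG2 and -0.048, -0.013 and -0.056 in Ls174. A different-numbered pair in HepG2 (control 3 and HME 1) reached 0.32. With 3 libraries in a group, these values cannot show whether same-numbered samples were handled together. The direction of the share of counts was kept in every alternative run. With 3 libraries in a group and 1 far from the rest in 2 groups, single members are poorly resolved.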

Other observations

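The mitochondrial ribosome, built from separate nuclear genes, was described by 77 tested genes. In HepG2, 5 rose and 5 fell with HME (11.3% and 10.9% of all genes). Of the 77, 37 were positive (48.1%, against 47.7% of all genes), and the median log2 fold change was -0.06. MRPS6 was at 23.1, 19.0 and 37.3 CPM in controls and 114, 64.9 and 65.2 CPM with HME, without overlap (log2 fold change 1.61, adjusted p = 0.0545 with edgeR). Without control 2 the log2 fold change of MRPS6 was 1.45 (adjusted p = 0.0349 with edgeR). In Ls174, 10 rose and 0 fell (4.11% and 7.85% of all genes). Here 68 of 77 were positive (88.3%, against 49.9% of all genes), and the median was 0.31. MRPS10 was at 66.9, 91.6 and 92.5 CPM in controls and 154, 168 and 172 CPM with HME, again without overlap (log2 fold change 0.97, adjusted p = 0.0715 with edgeR). Without control 1 the log2 fold change of MRPS10 was 0.84 (adjusted p = 0.00391 with edgeR). By the interaction, 14 of these genes were lower and 1 higher in HepG2 at the unadjusted limits (5.75% and 7.42% of all genes), 0 passed the adjustment, and the median difference was -0.40. Of the 5 genes called lower in HepG2, MRPL28 rests on control 2, at 91.2 CPM against 20.7 and 12.3 CPM in the other controls, and without it the log2 fold change went from -1.90 to -0.60 and the call was lost.

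Among 14 regulators of ribosome production, MAX (log2 fold change 1.2) and RHEB (1.07) rose in HepG2, and RPS6KB1 (-1.30), RPS6KB2 (-1.25) and EIF4EBP2 (-0.73) fell. The shares of all genes called higher and lower were 11.3% and 10.9% in HepG2, and 4.11% and 7.85% in Ls174. RPS6KB1, an S6 kinase, was at 21.2, 89.9 and 28.6 CPM in controls and 20.2, 16.4 and 19.1 CPM with HME, so control 2 alone was high. Without control 2 the log2 fold changes of RPS6KB1 (-0.40), RPS6KB2 (-0.32) and EIF4EBP2 (-0.56) were not called, while MAX (0.88) and RHEB (0.74) were. In Ls174, MYC, a driver of ribosome production, fell by 1.45 on the log2 scale (adjusted p = 0.294 with edgeR), at 119, 37.8 and 31.7 CPM in controls and 30.7, 14.2 and 23.1 CPM with HME. Control 1 was the high library, and without it the log2 fold change of MYC was -0.61 (adjusted p = 0.172 with edgeR), still called.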
